A study of Mus musculus with 6 samples.

Results

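The introns described here are those that the deposited lists of splicing events gave as retained in every library of the nucleus accumbens (NAc). The introns were chosen by this listing alone, and an intron was counted when its retained form was listed in all 6 libraries, with the same class, gene, chromosome, strand, start and end. This rule left 446 of 26298 retained introns, or 1.70%. They lay in 340 genes, of which 267 hosted 1, 54 hosted 2 and 19 hosted 3 or more. An interval listed in 2 classes counts as 2 in these numbers. Of the others, 17749 were listed in 1 library, 4729 in 2, 1892 in 3, 943 in 4 and 539 in 5.

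The tissue came from adult male C57BL/6N mice aged 7 to 8 weeks that went through conditioned place preference, a task in which an animal learns to link a compartment with an injection. Mice of the morphine group received morphine (10 mg/kg, i.p.) in drug sessions on days 1 to 6, and mice of the saline group received saline only. The NAc, a ventral striatal region of the reward circuit, was taken 30 min after the test on day 7, from 3 samples per group. Whether a library held tissue of 1 mouse or of several was not clear from the sources, so the spread between libraries may be smaller than the spread between mice.

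An intron is the stretch of a primary transcript that the spliceosome cuts out between a donor site at its 5′ end and an acceptor site at its 3′ end. Most introns start with GT and end with AG, and a small class is removed by a separate, U12-dependent spliceosome. A transcript that keeps an intron often stays in the nucleus or, when the intron brings a stop codon into the reading frame, can be degraded after export. Retained introns are well known in genes for splicing factors, and in neurons some of them are spliced out after synaptic activity.

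Each retained form was listed beside a spliced form of the same interval. In class IR a single intron was kept and in class MIR several neighbouring introns were kept together. For XIR and XMIR the outer ends of the flanking exons differed between both forms. The 446 introns were 355 of class IR, 57 MIR, 30 XIR and 4 XMIR. Because 16 intervals were listed as IR and XIR, 9 as IR and MIR and 2 as MIR and XMIR, they were 419 distinct intervals, and the paired classes are not independent. The 61 members of the multiple-intron classes covered 2 to 3 introns, and 50 of them covered 2.

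**Figure D1:**
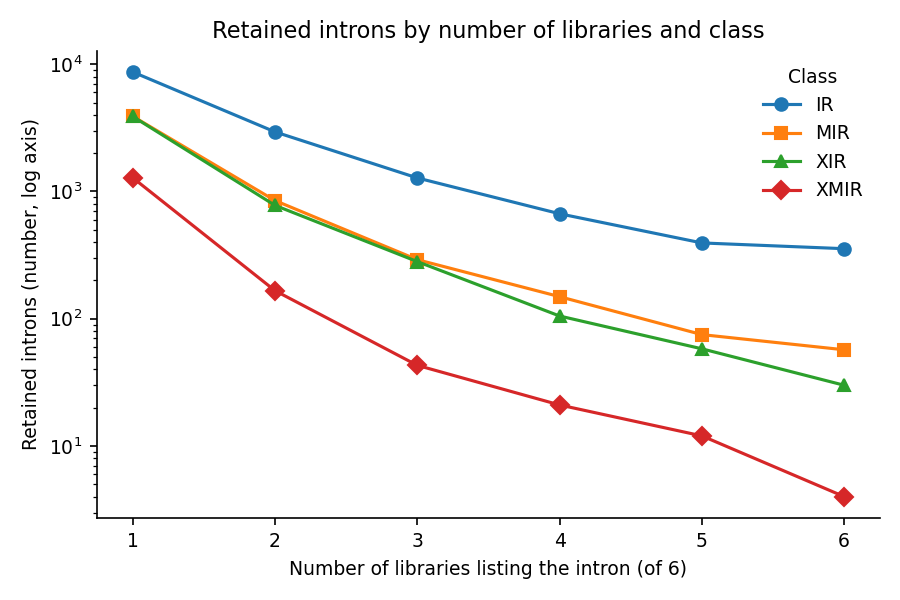
Number of retained introns (log axis) by the number of libraries that listed them, for each event class. In every class the number was lower with each further library, and class IR kept 355 introns in all 6 libraries, against 4 of class XMIR.

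Sequences were read from annotated transcripts that contain the intron, which was possible for 226 of the 446. Short introns without an in-frame stop codon made up a different share of these introns than of those in fewer libraries, and 5 of them follow with the terminal dinucleotides in capitals. Acvr2b encodes an activin receptor, Chd4 a chromatin remodelling helicase, Braf a kinase of the MAPK cascade, and Hnrnpl and Hnrnpm RNA-binding splicing regulators. Coordinates are on GRCm38, and each sequence is given 5′ to 3′ on the strand of the gene.
Acvr2b, chr9:119428353-119428424, plus strand: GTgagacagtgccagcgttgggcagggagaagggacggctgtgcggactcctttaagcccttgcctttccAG
Chd4, chr6:125120386-125120469, plus strand: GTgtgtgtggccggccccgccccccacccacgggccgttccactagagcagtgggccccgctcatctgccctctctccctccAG
Braf, chr6:39677473-39677571, minus strand: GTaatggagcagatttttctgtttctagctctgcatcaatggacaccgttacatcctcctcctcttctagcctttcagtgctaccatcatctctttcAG
Hnrnpl, chr7:28818533-28818643, plus strand: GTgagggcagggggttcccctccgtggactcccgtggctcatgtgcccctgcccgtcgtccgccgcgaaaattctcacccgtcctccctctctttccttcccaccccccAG
Hnrnpm, chr17:33666530-33666646, minus strand: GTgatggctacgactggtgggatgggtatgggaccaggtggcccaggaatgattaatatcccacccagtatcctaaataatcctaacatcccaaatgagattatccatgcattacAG

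The larger group carried a stop codon in the frame of the upstream exon, and 6 short examples follow with the first in-frame stop codon in capitals. Zfp276 encodes a zinc finger protein, Mdp1 a phosphatase, Naa40 an acetyltransferase of histone tails, Rgs11 a protein that speeds up GTP hydrolysis by G proteins, Gtpbp6 a GTP-binding protein and Sirt7 a deacetylase. In the first 4 the stop codon began after 1 base of the intron and so overlapped the donor site.
Zfp276, chr8:123264927-123264994, plus strand: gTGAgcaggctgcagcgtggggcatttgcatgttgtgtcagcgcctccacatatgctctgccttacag
Mdp1, chr14:55660099-55660167, minus strand: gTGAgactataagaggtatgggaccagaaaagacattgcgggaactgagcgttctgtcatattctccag
Naa40, chr19:7230107-7230187, minus strand: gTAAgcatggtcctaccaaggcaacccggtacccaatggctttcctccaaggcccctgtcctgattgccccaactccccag
Rgs11, chr17:26207458-26207545, plus strand: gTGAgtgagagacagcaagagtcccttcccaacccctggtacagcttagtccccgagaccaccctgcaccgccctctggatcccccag
Gtpbp6, chr5:110106784-110106869, minus strand: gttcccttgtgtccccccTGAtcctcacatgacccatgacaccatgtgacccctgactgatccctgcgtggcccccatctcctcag
Sirt7, chr11:120620505-120620646, minus strand: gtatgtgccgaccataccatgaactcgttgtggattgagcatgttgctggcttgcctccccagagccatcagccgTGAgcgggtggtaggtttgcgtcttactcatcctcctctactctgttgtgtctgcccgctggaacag

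The splice sites were mostly of the common kind. Among the 226 introns with a sequence, 218 ran from GT to AG (96.5%). The share was 91.6% in introns listed in 1 library and between 94.2% and 96.5% in those of 2 to 5, so it was not particular to the 446. The remaining 8 were 3 that ran from GC to AG, 1 from AT to AC and 4 from CT to AC. Of the 226, 18 were of class MIR and 2 of class XMIR, whose ends belong to different introns of the spliced form. The GC to AG interval of Brd9 was of class MIR. The intron from AT to AC lay in Tcea2, a transcription elongation factor gene, and was the only one that opened with the U12-type donor, an A or G followed by TATCCTT. The GC donors lay in Brd9, a bromodomain protein gene, Ccar1, a regulator of cell division and apoptosis, and Snrnp48, which encodes a protein of the U12-dependent spliceosome itself. The donors are shown with 3 exon bases before the intron and the acceptors with 3 exon bases after it, and capitals mark the terminal dinucleotides.
Tcea2 donor, chr2:181686247-181686597, plus strand: agtATatcctt
Tcea2 acceptor, same intron: gggtccttaaacacctgcACgca
Snrnp48 donor, chr13:38217496-38220687, plus strand: gagGCaagttt
Ccar1 donor, chr10:62763524-62764323, minus strand: cagGCactgaa
Brd9 donor, chr13:73938998-73940645, plus strand: cagGCaagacc
Srsf5 donor, chr12:80947866-80949094, plus strand, as a common GT donor: cagGTttgttg

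In the 4 members from CT to AC the spliced form was listed on the strand opposite to the retained form, and CT to AC is the reverse complement of GT to AG. They were 2 intervals of Ahnak, a large scaffold protein gene, of 402 and 603 bases, 1 of Sfr1, a recombination gene, of 48 bases and 1 of Tro, the trophinin gene, of 102 bases. All were of class XIR or XMIR. Sfr1 was the shortest interval of all, shown here with its ends in capitals, and without these 4 the number of introns was 442.
Sfr1, chr19:47732783-47732830, plus strand: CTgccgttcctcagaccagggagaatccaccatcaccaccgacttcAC

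Lengths ran from 48 bases to 10975 bases in Chka, a choline kinase gene, with a median of 711 (quartiles 231 and 1987). The introns just outside the rule, listed in 5 libraries, had a median of 941, and those listed in 1 library a median of 1027. Within class IR, which makes up different shares of these sets, the medians were 584 in all 6 libraries, 781.5 in 5 and 731 in 1. Of the 446, 93 (20.9%) were under 150 bases, against 14.1% of the introns in 5 libraries and 12.8% of those in 1. No test was made over introns, since introns of a gene share its expression and its assembly.

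After Sfr1 the shortest were those of Zfp276 (68 bases), Mdp1 (69) and, at 70 bases each, E4f1, a transcriptional regulator and ubiquitin ligase gene, Npr2, a natriuretic peptide receptor gene, and Plekhj1. At the other end stood Far1, an ether lipid enzyme gene, with a double intron of 9373 bases, Dync1i2, a dynein intermediate chain gene, with 9181 bases in both class IR and class MIR, Ankrd10 with 9141 and Phf20l1 with a multiple intron of 8144. The plot of lengths shows that both the shortest and the longest introns were listed in every library.

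**Figure D2:**
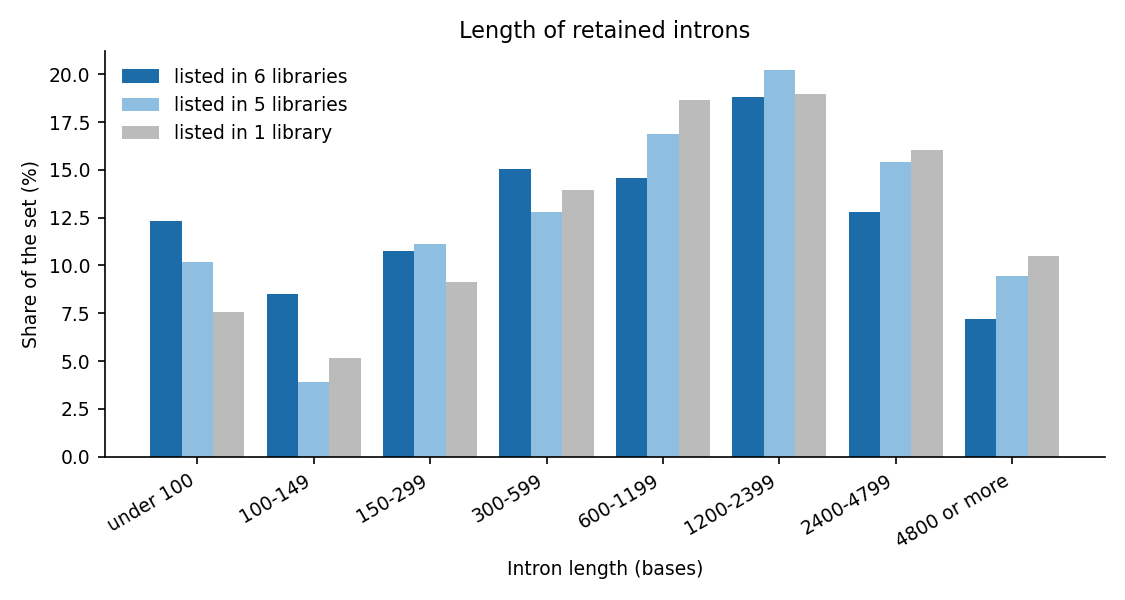
Share of introns (%) in each length class (bases) for introns listed in 6, 5 and 1 libraries. Introns of 6 libraries took a larger share than those of 1 library in each of the 4 shortest classes, with 12.3% against 7.58% in the class under 100 bases.

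Most of the introns were known to the annotation. In GENCODE M21, 391 of the 446 (87.7%) had both ends at the exon ends of a listed transcript, against 83.7% of the introns of 5 libraries and 65.0% of those of 1. Within class IR the shares were 96.3%, 94.9% and 89.5%. A transcript that contains the intron was annotated for 224 (50.2%). That share was 12.1% for introns of 1 library, 15.7% for 2, 19.98% for 3, 28.1% for 4 and 32.7% for 5, and it was 53.0% against 13.3% between 6 libraries and 1 within class IR. The share was thus higher with each further library that listed the intron. Whether the assembly was guided by an annotation is not given in the sources used here, and the part of this in the listing was not tested.

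Of the 384 introns in a coding transcript, 372 lay within the coding region, 8 in the 5′UTR and 4 in the 3′UTR. Only 4 were the first intron of their transcript (1.02%) and 4 the last. First introns were also few among the introns listed in 1 to 5 libraries (1.65%), beside 6.28% of the introns in the best-ranked coding transcripts of the host genes. Retained introns were matched to any annotated transcript of the gene, so these sets are not fully alike. In classes IR and MIR both listed forms shared the outer ends of their flanking exons in 100% of the entries, and the part of this in the low number of first and last introns was not tested. Among the 368 single annotated introns, 136 (37.0%) had a length that is a multiple of 3, against 33.8% of the introns in the best-ranked coding transcripts of the host genes.

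The reading frame could be followed through 187 of the introns. An in-frame stop codon lay in 135 of them (72.2%, 95% exact binomial interval 65.2 to 78.5). This interval covers counting error only and treats entries as independent, though some intervals were listed as both IR and XIR. Counted once per interval, 130 of 177 had a stop (73.4%). Over the 135 the stop began after a median of 38 intron bases and at most 310, and in 105 within the first 100 bases. In 25 introns it began after 1 base, at the donor site itself. The share with a stop was 86.7% in introns of 1 library, 87.7% in 2, 90.2% in 3, 87.4% in 4 and 90.5% in 5. Frames were read only in single introns that an annotated transcript contains. These were 187 of the 372 introns within a coding region in 6 libraries, but 1436 of 10961 in 1 library. The shares therefore describe the introns read, not the whole sets.

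The introns without a stop that kept the frame numbered 36, or 19.3% of those read, against 3.65% in 5 libraries and 4.11% in 1. They were 31 distinct introns of 31 genes, with lengths from 72 to 408 bases and a median of 102, and 26 of them were under 150 bases. A further 16 had no stop but a length that shifts the frame. Within class IR the open introns that kept the frame were 17.8% in 6 libraries and 4.30% in 1, and 5 of 125 in 5 libraries.

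Nearly all of these open introns were already part of an annotated protein. The sequence was kept within the coding region of a protein-coding transcript for 29 of the 31, and the others lay in Dxo, an RNA decapping enzyme gene, and Ssbp4. Among all 446 introns, 45 (10.1%) lay in such a coding sequence, against 2.41% in 5 libraries and 1.31% in 1. An intron kept in a coding sequence can hardly hold an in-frame stop, so the share with a stop is higher by construction once these introns are left out. It was then 134 of 148 (90.5%) in 6 libraries, 124 of 132 (93.9%) in 5 and 87.7% in 1.

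**Figure D3:**
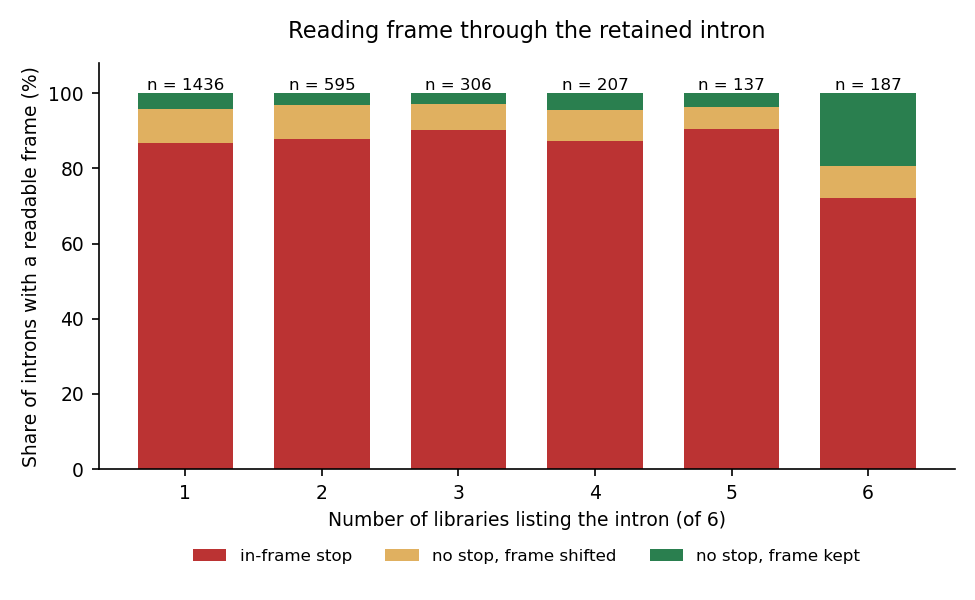
Share of introns (%) with an in-frame stop, with no stop and a shifted frame, and with no stop and the frame kept, by the number of libraries listing the intron, with the number read above each bar. The share that kept the frame was 19.3% in introns of 6 libraries and at most 4.35% in each of the other sets.

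The open introns included several of known signalling and RNA-binding genes. Beside those printed above, they lay in Fxr1, an RNA-binding protein gene of the fragile X family (87 bases), Ank1, which encodes ankyrin 1 of the membrane skeleton (78), Adgrl1, a latrophilin receptor gene (135), Ambra1, an autophagy regulator gene (273), Atp13a2, a lysosomal polyamine transporter gene (249), Mtx1, a mitochondrial import gene (114), Spr, which encodes the last enzyme of tetrahydrobiopterin synthesis (129), and Smox, the spermine oxidase gene (408).

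The files also give a whole number for each listed form, written with a minus sign and here called its tally. Its meaning is not given in the sources used here. It is not a read count or an FPKM, and it is reported only as a listed number. Over the retained forms it reached 11, and 119 of the 446 introns had a tally of 1 in every library. The mean tally of the retained form per intron lay between 1.41 and 1.62 in the libraries, and that of the spliced form between 1.97 and 2.16. The spliced form had the higher tally in all 6 libraries for 71 introns and the retained form for 10, among them those of Smox and Ank1.

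Smox had tallies of 4, 4 and 6 in the saline libraries and 3, 3 and 3 in the morphine libraries for the retained form, and 1 in every library for the spliced form. Ank1 had 2, 2 and 2 in saline and 3, 2 and 2 in morphine, again with 1 for the spliced form throughout. The retained form therefore led in each library for both genes, while only the values of Smox did not overlap between the groups. The 93-base open intron of Zfp644, a zinc finger protein gene, ranged most, with 9, 2 and 11 in saline and 3, 2 and 10 in morphine. Its values overlapped fully between the groups.

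Some of the hosts were genes that control splicing or mRNA export. Lists of genes by function were chosen with earlier results of these data known, and their counts are a description. Of 13183 genes listed in all libraries, 2.58% hosted one of the introns. In the 4 lists of RNA processing genes 23 of 104 did, or 22.1%. In the 4 lists of synapse, vesicle, channel and opioid or dopamine signalling genes 7 of 158 did, or 4.43%. Introns retained in fewer libraries were listed for 77 of the 104 RNA processing genes (74.0%), for 42.4% of the neuronal genes and for 36.8% of all listed genes, so the same order held there.

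SR proteins bind exons and recruit the spliceosome. Of 26 listed genes for SR and SR-related proteins 7 hosted such an intron: Srsf5, Srsf7, Srsf9, Srrm1, Srek1, Pnisr and Arglu1. The introns measured 1229 bases in Srsf5, 736 in Pnisr and 2280 in Arglu1. The frame could be read in 5 of the 8 introns of this list, and all 5 had a stop, after 6 bases in Srsf5, 17 in Pnisr and 102 in Arglu1. The retained form of Srsf5 had tallies of 2, 2 and 2 in saline and 2, 2 and 3 in morphine, beside 4 in every library for the spliced form. That of Arglu1 was 1 in every library for both forms. Srek1 hosted 2 introns, of 3539 and 868 bases, and the shorter had tallies of 1, 1 and 2 in saline and 1, 2 and 1 in morphine. All of these overlapped between the groups.

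CLK kinases and SR protein kinases phosphorylate SR proteins and so set where they act. Of 9 listed genes for both kinds of kinase, Clk1 and Clk4 were hosts. The interval of Clk1 covered 1349 bases as a multiple intron and had tallies of 2, 1 and 1 in saline and 2, 1 and 1 in morphine. The interval of Clk4 covered 1537 bases and was listed as IR and as MIR. It holds an exon that was listed as skipped in all 6 libraries. An annotated transcript without that exon has the interval as a single intron in the 5′UTR, and transcripts with the exon may differ. The retained form of the interval had tallies of 1, 3 and 1 in saline and 1, 1 and 1 in morphine.

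Of the 33 listed genes of the core spliceosome and of mRNA export, 10 were hosts: Sf3b1, Prpf38b, Ddx17, Ddx39b, Nxf1, Thoc1, Thoc2, Rbm5, Rbm25 and Rbm39. Sf3b1 encodes the branch site factor of the U2 complex, and its intron of 1813 bases had a tally of 1 in every library for both forms. Ddx17 and Ddx39b encode RNA helicases, and their introns of 4042 and 2177 bases had a tally of 1 in every library as IR, beside 2 for the spliced form. The intron of Ddx17 was also listed as XIR, with a tally of 1 for both forms in every library. Nxf1 encodes the main mRNA export receptor, whose own intron 10 is 1765 bases long here and was retained with tallies of 2, 1 and 1 in saline and 1, 1 and 1 in morphine. The frame could be read in 6 of the 13 introns of this list, and all 6 had a stop.

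The hnRNP proteins bind nascent RNA, and neuronal splicing regulators act on exons used in neurons. Of the 36 listed genes of both kinds 4 were hosts, all of them hnRNP genes, with introns in Hnrnph1, Hnrnpl, Hnrnpm and Hnrnpu. Hnrnpl hosted the open intron of 111 bases and the intron just before it, of 3108 bases, which was listed as IR and XIR. The open intron of Hnrnpm had tallies of 6, 4 and 3 in saline and 6, 4 and 4 in morphine, and a further intron of 904 bases had 2, 2 and 2 in saline and 3, 1 and 1 in morphine. In each of these introns the groups overlapped. Both frames that could be read here had no stop.

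Chromatin and transcription genes gave 6 hosts of 44 (Hdac3, Sirt7, Chd4, Ogt, Cdk13 and Ccnl1). Ogt, the enzyme that adds N-acetylglucosamine to proteins, kept an intron of 3415 bases with a tally of 1 in every library, beside 3 for the spliced form. Sirt7 had tallies of 1, 1 and 3 in both groups. The intron of Chd4 had a tally of 1 in every library, and its spliced form had 3 or 4.

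Ion channel genes gave 6 hosts of 42, the only neuronal list with more than 1. They were Cacna1a and Cacna1d, which encode pore subunits of voltage-gated calcium channels, Scn3a, a sodium channel gene, Kcnt1, a sodium-activated potassium channel gene, Ryr3, a calcium release channel gene, and Clcn2, a chloride channel gene. Cacna1a kept intron 9 (980 bases), with tallies of 2, 4 and 1 in saline and 4, 1 and 2 in morphine. Kcnt1 kept 2 introns, of 1990 and 287 bases, both with an in-frame stop. Clcn2 ranged from 1 to 4 in tally, with 1, 1 and 3 in saline and 2, 4 and 1 in morphine. Values of the groups overlapped for all of them.

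Of 47 listed genes of opioid, dopamine and cAMP signalling 1 was a host, Rgs11 (2.13%), near the 2.58% of all listed genes. The Rgs11 intron of 88 bases had tallies of 1, 1 and 2 in saline and 2, 2 and 4 in morphine, so a tally of 2 occurred in both groups. No host was found among the 40 glutamate and GABA synapse genes, the 29 vesicle release genes, the 15 immediate early genes, the 34 ribosomal and translation genes, the 27 respiratory chain genes or the 15 myelin genes listed in all libraries. With 2.58% of all listed genes as hosts, a single list of this size can lack a host, and the absence was not tested. A retained intron in fewer libraries was listed for 18 of the synapse genes and 13 of the vesicle genes, but for 3 of the ribosomal genes and 1 of the respiratory chain genes. The remaining lists gave Ank1 and Flna of 37 cytoskeleton genes, Sars of 20 tRNA synthetase genes and Taf1d of 11 genes that host small nucleolar or long non-coding RNAs.

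**Figure D4:**
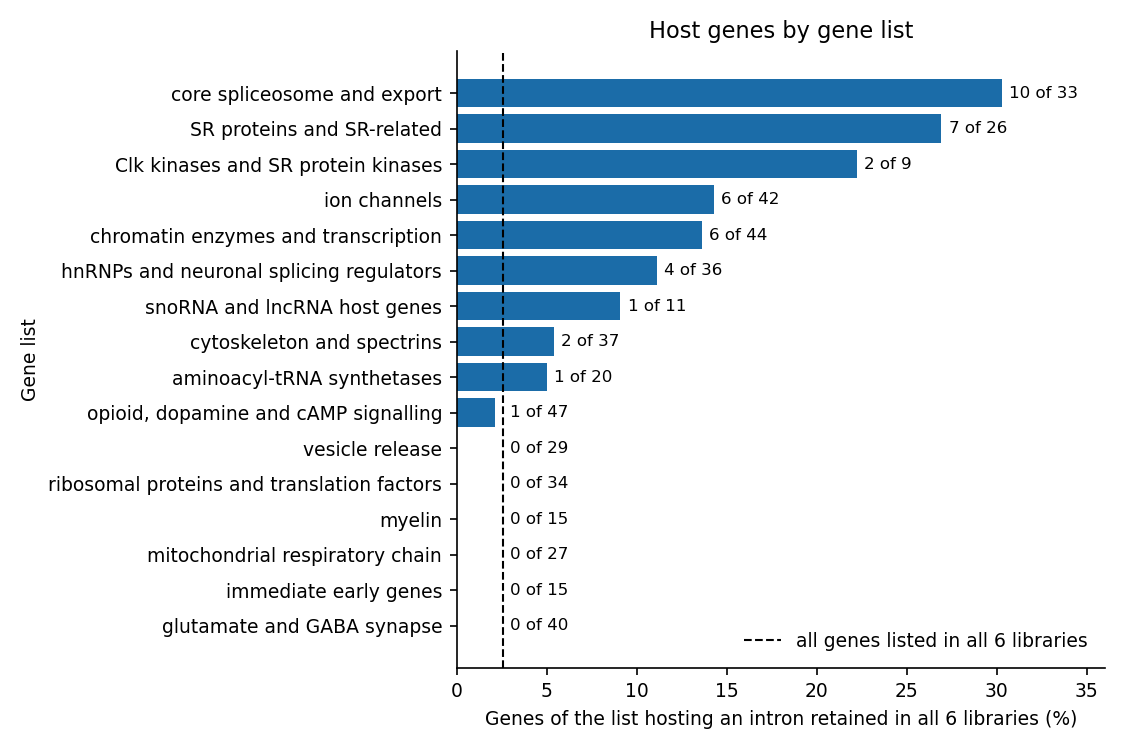
Share of the genes of each list (%) that hosted an intron retained in all 6 libraries, with the number of hosts of the genes listed in all libraries beside each bar. The dashed line is the 2.58% of all listed genes. The lists of the core spliceosome and mRNA export (10 of 33) and of SR and SR-related proteins (7 of 26) lie farthest above it.

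Host genes also differed in build. Their best-ranked coding transcripts had a median of 13 introns, against 8 in the other genes listed in all libraries, and the introns of these transcripts a median length of 871 bases against 1403. Host genes had a median of 6.33 other events per library, against 2.83. The part of intron number and of transcript diversity in the listing was not tested.

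Several genes kept a run of introns. Ccnl1, which encodes a cyclin that acts in transcription and splicing, hosted 6 listed introns between chr3:65948791-65955203 on the minus strand. They were intron 4 (889 bases) and intron 5 (1689 bases) of the 10 in its coding transcript, both of them together (2643 bases, as MIR and as XMIR), and introns of 253 and 3649 bases that belong to a transcript annotated as a target of nonsense-mediated decay. The 889-base intron had tallies of 2, 2 and 3 in saline and 3, 4 and 2 in morphine, and the 1689-base intron had 1, 2 and 1 and 2, 1 and 1. The intron of 253 bases lay within the interval of 1689 bases, so these share sequence.

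Tia1, a gene for an RNA-binding protein of stress granules and of splicing, hosted 4 introns around an exon that was skipped in all 6 libraries. The introns on both sides of that exon (168 and 1190 bases) and the whole interval across it (1391 bases) were each listed as retained. Their retained tallies lay between 1 and 3 in every library. All 3 had an in-frame stop, after 11 bases for both that begin at the same donor and after 35 bases for the 1190-base intron. The next intron, of 3933 bases, had tallies of 2, 2 and 2 in saline and 4, 2 and 1 in morphine.

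Gtpbp6 and Tmem191c, a transmembrane protein gene, also reached 6 listed entries each, but with short introns. In both genes some intervals were listed in 2 classes, so the distinct intervals were fewer. In Gtpbp6 the 6 lay within 317 bases and combined 2 neighbouring introns with alternative acceptors. In Tmem191c they measured between 79 and 306 bases, and the intron of 126 bases, whose stop began after 3 bases, had a tally of 2 in every library. Jmjd1c, a gene of the JmjC demethylase family, hosted 4, including introns 18 and 19 side by side.

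Of the genes with 3 listed introns, Guf1, a mitochondrial translation factor gene, Mrgbp, a subunit gene of a histone acetyltransferase complex, Naa40, Rad52, a recombination gene, Thoc1, a subunit gene of the THO export complex, and 4933434E20Rik each kept 2 neighbouring introns singly and together. In Pcbp2, which encodes a poly(C)-binding protein, Tsc2, which encodes the tuberin subunit that restrains mTORC1, and Myef2, a transcriptional repressor gene, an interval around an exon listed as skipped in all 6 libraries was entered in 2 classes. Donson, a DNA replication gene, had 2 of its 3 intervals on a shared acceptor end. In Chfr, a mitotic checkpoint ubiquitin ligase gene, and Flna, the gene of the actin crosslinker filamin A, the 3 introns lay apart, and Hnrnpl is described above.

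Across all 446, 90 (20.2%) bordered an exon that was listed as skipped in at least 1 library, and 73 (16.4%) held such an exon. Introns of 2 to 5 libraries bordered such an exon in 21.3% to 24.0% and those of 1 library in 17.6%. The share that held one was 15.8% in 5 libraries, 15.9% in 4 and 9.93% in 1, so neither share set the 446 apart from the nearest sets. Within the members, 34 of the 57 of class MIR held a skipped exon, against 33 of the 355 of class IR, so the class mix moved with these shares.

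A microRNA lay in an intron of Josd2, a deubiquitinase gene, and a small nucleolar RNA, Gm24455, in that of Taf1d, a factor of RNA polymerase I transcription. The Josd2 intron (chr7:44468970-44470411, plus strand, 1442 bases) was listed as IR and XIR with a tally of 1 in every library but the third morphine library, where it was 2. The annotated hairpin of Mir7052 ends at the last base of this intron. Its mature forms from RefSeq (GRCm38.p6) follow with the seed, bases 2 to 8, in capitals.
mmu-miR-7052-5p: uGUGGGAAgguggaggccuuu
mmu-miR-7052-3p: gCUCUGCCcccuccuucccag

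The comparison of morphine with saline asked whether these introns were listed differently between the groups beyond their presence, which the rule fixes. The libraries held 7925, 5435 and 5409 retained introns in saline and 9534, 7291 and 6432 in morphine. The 446 thus made up 5.63%, 8.21% and 8.25% of the retained introns in saline and 4.68%, 6.12% and 6.93% in morphine. The group means were 7.36% ± 1.5 (SD, n = 3) and 5.91% ± 1.14 (SD, n = 3), with p = 0.3 in a two-sided exact permutation test. As the rule fixes 446 introns in each library, this share only restates the library's total of retained introns and says nothing else about the 446. The first saline library lay within the range of the morphine libraries, so the groups overlapped. With 3 libraries per group no p under 0.1 is possible.

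The host genes listed 1395, 1007 and 987 other retained introns in the saline libraries and 1647, 1398 and 1092 in the morphine libraries. The means were 1129.7 ± 230.0 and 1379 ± 278 (SD, n = 3 each), and the difference of 249 gave p = 0.2 in the two-sided exact permutation test. This difference was 115 without the first morphine library, 393 without the third and 382 without the first saline library. The group means for all retained introns of a library differed 1.24-fold, against 1.22-fold for these other introns. The difference was thus not particular to the host genes. After Benjamini-Hochberg adjustment over the 4 comparisons of this kind both p-values of the exact tests were 0.3. Relative depth, estimated as described for the processing, was 1, 1.07 and 1.37 in saline and 1.20, 1.59 and 1.29 in morphine, and its part in these numbers was not tested. In whole tissue, fewer cells of a type and less RNA per cell cannot be told apart.

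A form is a distinct pattern of flanking exon ends under which a retained intron was listed. In 386 of the 446 introns there was 1 form in every library. The mean per intron was 1.04, 1.06 and 1.04 in saline and 1.05, 1.09 and 1.05 in morphine, and the mean tally was 1.53, 1.41 and 1.46 in saline and 1.62, 1.596 and 1.498 in morphine. Group means were 1.05 and 1.06 for forms and 1.47 ± 0.0585 and 1.57 ± 0.0661 for tallies (SD, n = 3 each). The difference in forms was 0.017 and lay between 0.0064 and 0.025 when a library was left out. It turned to -0.14 when forms were divided by relative depth. With 386 of the 446 introns at 1 form throughout, that division mostly follows depth, which was higher on average in morphine. The negative value therefore says little about forms, and the direction is not settled. Forms and tallies both overlapped between the groups, and no p-value is given for means over introns that were chosen with earlier results known.

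**Figure D5:**
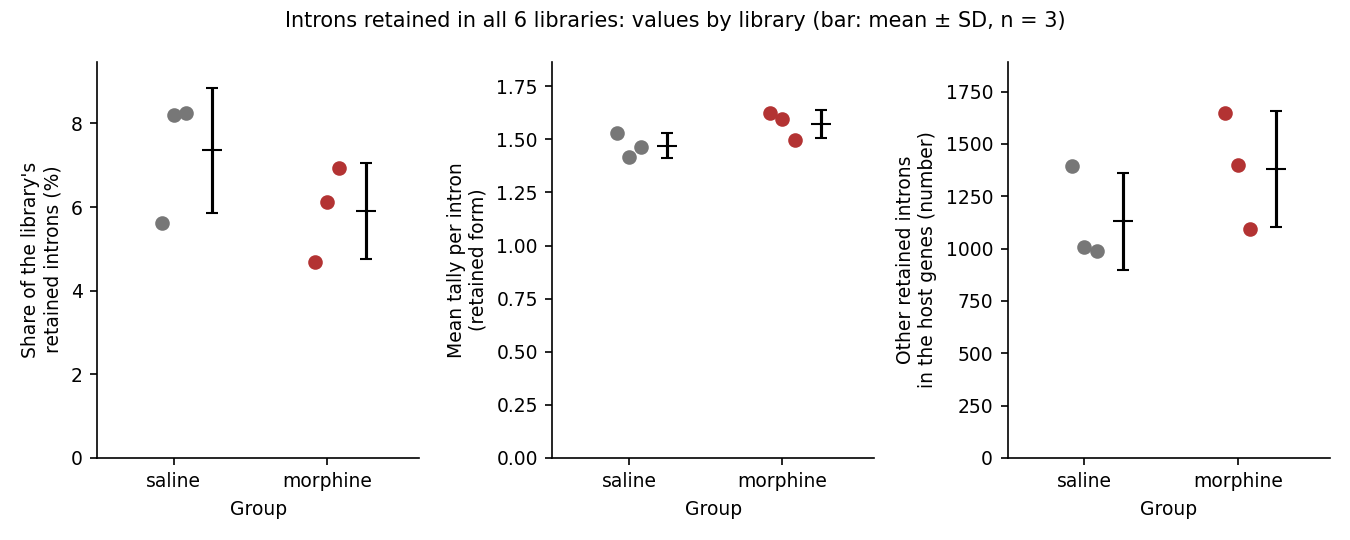
Values of each library (points) by group, with the group mean ± SD (n = 3), for the share of the library's retained introns that were retained in all 6 libraries (%), the mean tally of their retained form, and the number of other retained introns in the host genes. The groups overlapped in all 3 panels, with shares from 5.63% to 8.25% in saline and from 4.68% to 6.93% in morphine.

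The number of forms did not overlap between the groups for 1 of the 446 introns (0.224%), where it was higher in saline. Among the 2982 retained introns and skipped exons listed in all libraries, percent so called was 0.0671, with 0.0335 higher in saline and 0.0335 higher in morphine, or 1 event each. The intron was intron 13 of Phf20l1, the gene of a chromatin reader with Tudor and PHD domains (1174 bases, chr15:66622818-66623991, plus strand), with 2, 2 and 2 forms in saline and 1, 1 and 1 in morphine. Its tallies were 4, 4 and 2 in saline and 2, 1 and 2 in morphine. The neighbouring multiple intron of Phf20l1, which contains it, went the other way in tally, with 2, 2 and 1 in saline and 5, 3 and 3 in morphine.

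The tally did not overlap for 7 of the 446 introns (1.57%), and percent of all events so called was 1.54, so the share was near the background. It was higher in morphine for 5 and higher in saline for 2, against 1.04% and 0.503% of all events. Beside Phf20l1, the higher values in morphine were in Brd9 (1, 1 and 1 against 2, 3 and 3), in Atp13a4 and 4933427D14Rik (1, 1 and 1 against 2, 2 and 2 in each) and in ENSMUSG00000098639, a gene on a patch sequence (1, 2 and 1 against 5, 7 and 3). The higher values in saline were in Smox, given above, and Ankrd16 (3, 2 and 2 against 1, 1 and 1). Atp13a4 encodes a cation-transporting ATPase. These genes were named after their values were seen, and none belongs to the RNA processing lists.

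Marker genes of cell types were looked up among the listed genes. Being listed does not measure a level, so this cannot check the label of the tissue. All 14 striatal neuron markers, all 5 each of oligodendrocytes, astrocytes and microglia, and 4 of 5 cortical neuron markers were listed in every library, as were 3 of 5 of choroid plexus and ependyma. None of them hosted one of the 446 introns.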

How the data were processed

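Total RNA of the NAc was sequenced by the authors from 3 saline and 3 morphine samples with strand-specific libraries. Per the study's methods, reads were mapped with HISAT2 and assembled with StringTie. The genome build and annotation are not given in the sources used here. Intron ends were matched to GENCODE M21 on GRCm38, which also gave the transcript sequences. The deposited event lists carry a whole-number score headed FPKM that is 0 or negative and is used only with its sign reversed, as the tally. Read counts and FPKM values of a separate deposited table of transcripts, as the authors made them, served only for the relative depth, from the ratio of count to FPKM over 91 values with at least 10 counts. The log2 fold changes and adjusted p-values of that table are the authors' own and were not used. The number of per-sample columns left unused was 0. Read depth per library is unknown, so depth was followed as relative depth and as numbers of listed entries.

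Retained and spliced entries were paired, and introns were identified by class, gene, chromosome, strand, start and end. The members and gene lists were chosen with earlier results of these data known. Groups came from the treatment labels, and replicate numbers in accession order served as names. Frames were read from the best-ranked annotated coding transcript with the intron. Genes were named when they hosted at least 3 members, belonged to a list (at most 4 values each), held 1 of the 5 shortest or longest introns, a U12-type donor or a small RNA, or did not overlap between groups in forms. Other introns given with values were picked after these were seen. The means over introns carry no p-value. Comparisons used two-sided exact permutation tests over libraries. Alternatives were identity by pattern, other sets of classes, chromosomes or strands, annotated introns only, and each library left out. Scripts were tested on simulated events. Analyses ran in Python 3.11.15 (pandas 2.3.3, numpy 2.4.6 and scipy 1.17.1).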

Additional observations from a re-analysis of the deposited data

How the results depend on the processing

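Listing in all 6 libraries may depend on assembly and depth, which was not tested, and an unlisted intron may still have been retained. The number of introns was 446, 985 when 5 of 6 libraries sufficed, and 515 to 557 when a library was left out. The share with an in-frame stop was 72.2%, 90.5% without introns kept in an annotated coding sequence (chosen after seeing the data, and higher by construction), and 73.7% to 75.1% without a library. The difference in forms per intron, morphine minus saline, was 0.017 and turned to -0.14 when divided by relative depth, which was higher on average in morphine. That division mostly follows depth, since most introns had 1 form in every library. Without a library the undivided difference lay between 0.0064 and 0.025. The number of introns whose forms did not overlap was 1, 4 with classes merged, 7 with the tally in place of forms (added after seeing the data), and 1 to 4 without a library, where fewer values have to separate. The cause of the change with merged classes was not tested. Without a library the share difference lay between -2.32 and -0.83 percentage points, the other retained introns between 115 and 393 more in morphine, and the median length between 716 and 788. Neither the share difference nor that in other retained introns changed sign under the alternatives run, and none of these tests could reach p under 0.1. Both move with the library totals of retained introns, which were higher on average in morphine. With identity by pattern the number of forms is 1 by construction, so no value was made. No paired analysis was possible because the labels give no replicate numbers that groups share.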
